A study of Mus musculus with 12 samples.

Results

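The Runx family of transcription factors and their partners were examined as a set of 9 genes of 40800 in the count table of embryonic mouse heart ventricles. The set holds Runx1, Runx2 and Runx3, their shared cofactor Cbfb, and the members of the LIM-only and basic helix-loop-helix complex, Lmo2, Tal1, Lyl1, Gata2 and Ldb1. Genes were taken by symbol, with 1 row each and no count filter. The members were chosen by their CPM difference in these same libraries, since Runx1, Runx2 and Lmo2 were higher in Wnt gain of function, so every difference of these 9 genes between the groups is a description, and no p-value is given for it. Counts of members called in a fit over all genes are printed with the share or number of all genes called, there or in the last section. Of the 9 genes, 8 passed the low-count filter, and Runx3 did not.

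All libraries came from ventricles at embryonic day 12.5. The 6 control libraries carry the genotype control, and the 6 others carry the genotype Wnt gain of function, in which the Wnt pathway is overactive. The allele and any Cre driver behind it are not named in the labels, and embryos per library are not stated. Counts per library ran from 10130088 to 17526325, and 14774 genes were tested, of which 64 were higher and 10 lower (edgeR, adjusted p under 0.05).

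Runx proteins bind DNA through the Runt domain and gain affinity by pairing with Cbfb. Runx1 is required for blood cells to emerge from endothelium, Runx2 for bone formation, and Runx3 acts in lymphocytes and sensory neurons. Lmo2 binds no DNA itself. It joins Tal1 or Lyl1, with an E protein, to a GATA factor and to Ldb1, in a complex known from blood progenitors and endothelium. In an embryonic ventricle these genes can be read from endocardium and vessels, from circulating blood cells and from resident leukocytes. In such a bulk sample, a change in the number of cells of a type and a change in RNA per cell cannot be told apart.

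For each of the 3 Runx genes 1 start site is shown, because these share a tandem RUNX motif. Promoter windows from RefSeq (GRCm38.p6, 250 bases before to 50 after a start) matched 8 of the 9 genes, all but Lmo2, with 14 windows. The letters TGTGGT, searched on both strands, stood in 3 of these windows, 1 for each Runx gene, and in 16.8% of all 32851 windows. In each of the 3 there was a pair of the reverse-strand letters ACCACA with first bases 8 apart. The pair began 29 bases after 1 start of Runx1, 24 after the start of Runx2 and at position -134 of 1 start of Runx3. The start base was counted as 1 and the base before it as -1. The other windows of Runx1 and Runx3 held no RUNX match. Such a pair, searched on both strands after the single matches had been seen, stood in 7 of the 32851 windows (0.0213%), of which 3 belonged to the Runx genes. The 30 bases around each pair follow 5′ to 3′ with the matches in capitals.
Runx1, chr16:92826025-92826054, minus strand: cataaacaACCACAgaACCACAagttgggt
Runx2, chr17:44814583-44814612, minus strand: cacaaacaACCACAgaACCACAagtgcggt
Runx3, chr4:135120503-135120532, plus strand: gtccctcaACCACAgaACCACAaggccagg
A run of 18 bases was identical in all 3 genes. Over the full 30 bases Runx2 matched Runx1 at 27 positions and Runx3 matched it at 19.

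Runx1 is read from a distal and a proximal promoter, and a count per gene does not say which was used. The 250 bases before each start of Runx1 and before the start of Runx2 are shown because these were the Runx members above the count filter, and both had higher means with Wnt gain of function. Capitals again mark ACCACA.
Runx1 distal, chr16:92826075-92826324, minus strand: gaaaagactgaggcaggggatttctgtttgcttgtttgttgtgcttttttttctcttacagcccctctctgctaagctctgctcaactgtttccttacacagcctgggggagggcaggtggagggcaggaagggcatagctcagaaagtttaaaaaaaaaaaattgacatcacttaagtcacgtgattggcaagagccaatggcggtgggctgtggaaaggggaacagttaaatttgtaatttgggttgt
Runx1 proximal, chr16:92697330-92697579, minus strand: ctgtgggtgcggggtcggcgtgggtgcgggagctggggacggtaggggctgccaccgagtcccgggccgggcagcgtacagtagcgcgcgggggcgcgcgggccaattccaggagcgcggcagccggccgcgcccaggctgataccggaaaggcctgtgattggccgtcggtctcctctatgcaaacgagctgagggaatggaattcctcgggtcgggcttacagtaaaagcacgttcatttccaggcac
Runx2, chr17:44814628-44814877, minus strand: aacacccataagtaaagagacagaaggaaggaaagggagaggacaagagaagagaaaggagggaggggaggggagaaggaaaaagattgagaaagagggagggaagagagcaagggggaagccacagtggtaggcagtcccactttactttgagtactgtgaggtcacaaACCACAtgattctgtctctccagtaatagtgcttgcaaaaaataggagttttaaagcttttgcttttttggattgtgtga
The proximal Runx1 stretch held 67.6% G and C and 27 CG pairs, against 45.6% and 2 in the distal stretch and 44.8% and 0 before Runx2. The TCF/LEF letters CTTTGAA or CTTTGAT, searched on both strands, stood in 1 of the 14 windows, that of Lyl1, and in 8.65% of all windows. The GATA letters AGATAA stood in 2 of the 14 (Tal1 and Ldb1) and in 11.2% of all, the E-box CAGATG in 1 (Tal1) and in 17.2%, and the ETS letters AGGAAGT in 1 (Cbfb) and in 9.35%. A match is a description of the letters, and a window without one says nothing about binding.

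In control ventricles the cofactor Cbfb had the highest level per length and the 3 Runx genes the lowest. Levels were compared as CPM (read counts scaled to the size of the library) per kb of the gene's merged exons in GENCODE M21, as mean ± SD of 6 control libraries. Cbfb stood at 23.0 ± 4.56 CPM per kb and Lmo2 at 7.04 ± 0.486, and the library ranges of these genes did not overlap each other or the next gene. Ldb1 at 3.88 ± 0.340 and Lyl1 at 3.77 ± 0.959 did not differ beyond their spread, nor did Lyl1 and Tal1 at 2.49 ± 1.76, or Tal1 and Gata2 at 2.46 ± 0.337 CPM per kb. Below these and without overlap, Runx1 followed at 0.138 ± 0.0263, Runx2 at 0.0720 ± 0.0374 and Runx3 at 0.0321 ± 0.0258 CPM per kb, each overlapping its neighbour. The 9 genes had the same order of mean level per length in Wnt gain-of-function libraries. Summed over the family and per kb, the Runx genes reached 0.70% to 1.30% of the Cbfb level in control libraries and 1.55% to 4.49% in Wnt gain-of-function libraries. The lowest of the latter was replicate 5.

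That library stands apart. Axin2, a feedback inhibitor that serves as a standard readout of canonical Wnt signalling, ran from 1.39 to 4.13 CPM in the control libraries. It was at 3.77 CPM in Wnt gain-of-function replicate 5 and at 14.9 to 26.0 CPM in the other 5 libraries of that genotype. For Runx1, Runx2 and Lmo2 the fold changes below are therefore given with and without the library labelled Wnt gain-of-function replicate 5. Other values below, those of the lists and markers among them, include that library unless it is said to be left out. Clustering of deviations from the group means over all tested genes also divided the 12 libraries into 3 sets. The number 3 was fixed in the clustering. Taking out the group means keeps the sets from following the genotypes, so nothing is read from their cutting across them. The sets were control 2 and 3 with Wnt gain-of-function 1 and 2, control 4 and 5 with Wnt gain-of-function 3 and 4, and control 1 and 6 with Wnt gain-of-function 5 and 6. The last set was loose, with r of the deviations -0.06 between its controls and -0.07 between its Wnt gain-of-function libraries. In the first set these values were 0.57 and 0.58, and in the second 0.34 and 0.47. Replicate 5 was closer to control 4 (r = 0.16) than to any library of its own set. Wnt gain-of-function 3 and 4, 1 and 2, and control 2 and 3 were the 3 pairs with the closest counts, and the labels do not tie libraries to separate animals.

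**Figure D1:**
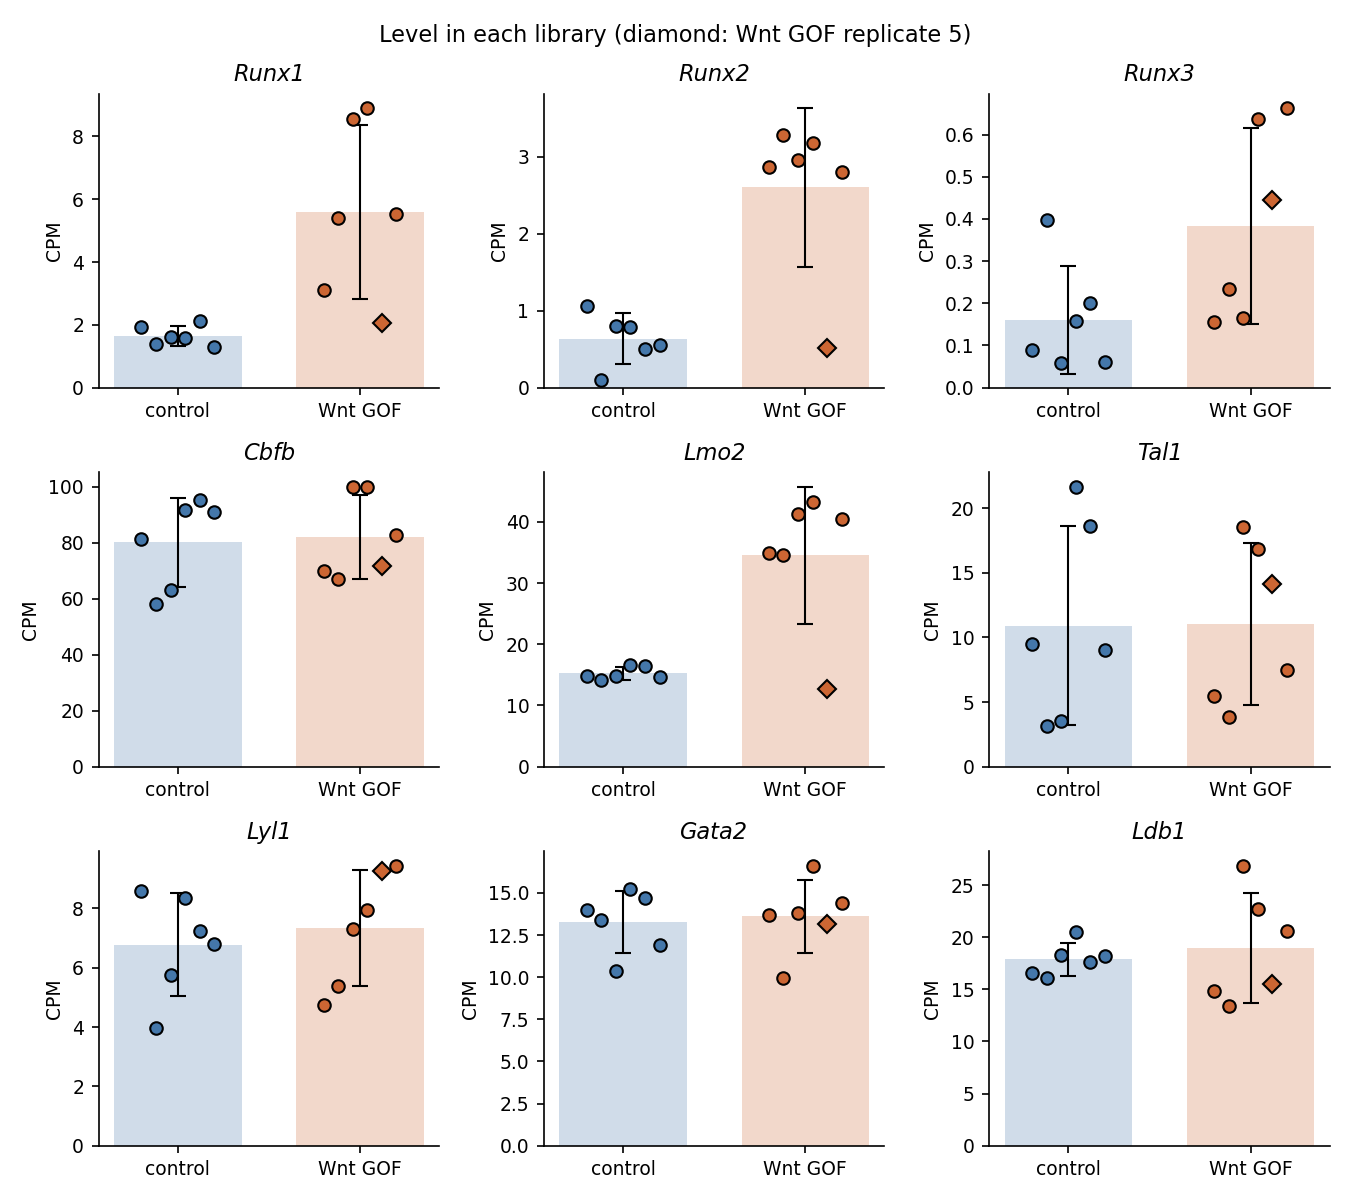
Level in CPM (vertical axes, from 0) of each of the 9 genes in the 6 control and 6 Wnt gain-of-function (Wnt GOF) libraries; points are libraries, bars are means and lines are ± SD. Wnt GOF replicate 5 (diamond) lies within the controls for Runx1 and Runx2 and below them for Lmo2, and the other 5 Wnt GOF libraries lie above every control for these 3 genes. The groups of Cbfb, Tal1, Lyl1 and Gata2 overlap broadly, and Wnt GOF libraries of Ldb1 lie on both sides of the controls.

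In Runx1, Runx2 and Lmo2 the same 5 of 6 Wnt gain-of-function libraries exceeded every control. With all 12 libraries, 3 of the 8 members tested were called higher and 0 lower, where 0.433% and 0.0677% of all tested genes were, and 0 of the 9 had groups without overlap, where 0.298% were higher without overlap. Without replicate 5 the same 3 were called, where 1.00% of all genes were, and 3 of 9 did not overlap, where 1.36% were higher without overlap. The members were picked for this contrast, so nothing is read from these counts. The 3 called became 0 in limma-voom, with a leukocyte or endothelial covariate, with the closest pairs summed, and without control 6. With the replicate number as a block only Runx2 was called, and only Runx1 in each of the 10 fits that left out a library other than control 6 or Wnt gain-of-function 5. Lmo2 was also not called with no count filter or with the library sets as a block. Calls over all genes moved too, to 3 higher and 3 lower in limma-voom. With 1 library left out they ran from 34 to 149 higher and from 4 to 28 lower. Those of the other fits named here stand in the last section, and nothing is read from which member was called.

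Runx1 (ENSMUSG00000022952) was at 1.30 CPM in the lowest, 1.60 in the median and 2.12 in the highest control library. In Wnt gain of function the lowest, median and highest values were 2.07, 5.46 and 8.92 CPM. Replicate 5 was the lowest of these and sat inside the control range, replicate 1 was next at 3.11 CPM, and replicates 3 and 4 were highest at 8.55 and 8.92 CPM. The mean was 1.66 ± 0.317 CPM in control and 5.60 ± 2.77 in Wnt gain of function (SD, n = 6). That is 1.76 ± 0.317 (SE) on the log2 scale, or 3.39-fold. Without replicate 5 the mean was 6.30 ± 2.43 CPM (n = 5) and the log2 fold change 1.93 ± 0.258. Runx1 remained the most variable of the 3 among those 5 libraries, with an SD of 38.5% of the mean.

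Runx2 (ENSMUSG00000039153), low in these ventricles, was at 0.0992, 0.675 and 1.06 CPM in the lowest, median and highest control library, which is 1 to 14 reads. The corresponding Wnt gain-of-function values were 0.518, 2.92 and 3.28 CPM. Replicate 5 held 7 reads and lay within the control range, whereas the other 5 libraries spanned only 2.81 to 3.28 CPM, an SD of 6.78% of their mean. The means were 0.637 ± 0.331 and 2.60 ± 1.04 CPM (n = 6), 1.99 ± 0.408 apart on the log2 scale or 3.97-fold. It was 2.20 ± 0.295 on the log2 scale without replicate 5.

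Lmo2 (ENSMUSG00000032698), the bridging LIM-only protein, was tight in the controls, at 14.1, 14.8 and 16.6 CPM in the lowest, median and highest library. In Wnt gain of function these values were 12.7, 37.7 and 43.3 CPM. The lowest was again replicate 5, below all 6 controls, and the other 5 lay between 34.5 and 43.3 CPM. The means were 15.2 ± 1.05 and 34.5 ± 11.3 CPM (n = 6), 1.18 ± 0.220 apart on the log2 scale or 2.26-fold, and 1.35 ± 0.0915 without replicate 5.

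Runx3 (ENSMUSG00000070691) was near the limit of detection, with 1 to 4 reads in control libraries and 2 to 10 in Wnt gain-of-function libraries. Its values were 0.0574, 0.124 and 0.397 CPM in the lowest, median and highest control library and 0.155, 0.339 and 0.664 CPM in Wnt gain of function. The groups overlapped, and only 3 of 6 Wnt gain-of-function libraries, replicates 4, 5 and 6, exceeded every control. Unlike the other Runx genes, Runx3 was not lowest in replicate 5, which had 0.444 CPM. Without a count filter its log2 fold change was 1.34 ± 0.584, a value that rests on these few reads.

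**Figure D2:**
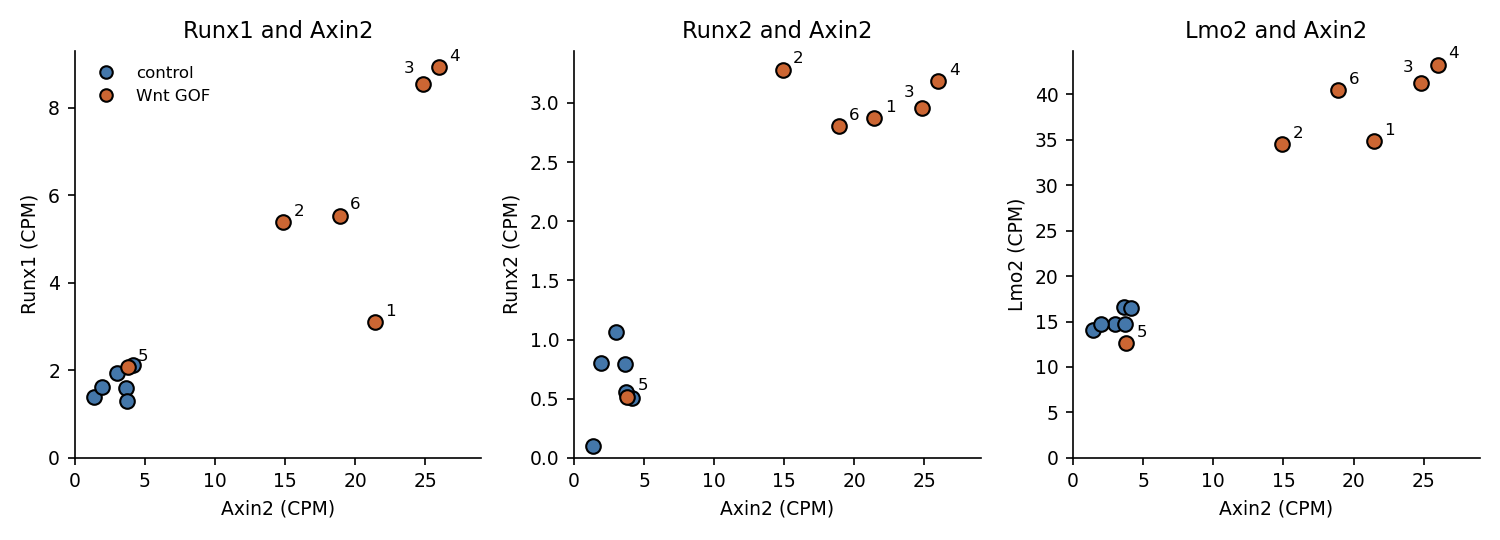
Runx1, Runx2 and Lmo2 (vertical axes, CPM) against Axin2 (horizontal axis, CPM) in the 12 libraries; points are libraries and numbers are the Wnt GOF replicates. Wnt GOF replicate 5 lies among the controls at an Axin2 level of 3.77 CPM and the other 5 lie apart at 14.9 to 26.0 CPM.

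The order of the libraries in Runx1, Runx2 and Lmo2 was set beside that in Axin2, which played no part in choosing the genes. Replicates 3 and 4, the pair of libraries with the closest counts, had the highest Axin2 (24.8 and 26.0 CPM), Runx1 and Lmo2 (41.3 and 43.3 CPM). Runx1 in replicate 1 was low for its Axin2, at 3.11 CPM beside 21.4 CPM. Runx2 was highest in replicate 2, where Axin2 was lowest of the 5, at 14.9 CPM. No correlation was computed, because Wnt gain-of-function libraries fall into separate clusters in Axin2, and the 2 lowest control values came from one of the closest pairs of libraries.

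The difference was also taken within each library set, with 2 libraries of each genotype and no test. For Runx1 the difference in mean log2 CPM was 1.43 in the set of control 2 and 3, 2.22 in the set of control 4 and 5, and 1.08 in the set that holds replicate 5. The values for Runx2 were 3.14, 2.19 and 0.64, and those for Lmo2 were 1.26, 1.35 and 0.62. The mean of all 3 genes was thus higher with Wnt gain of function in every set and least so in the set with replicate 5. In that set replicate 5 lay below both controls in Runx2 (0.518 CPM against 1.06 and 0.557). The same held in Lmo2 (12.7 against 14.8 and 14.7), so only replicate 6 was higher there. In Runx1 replicate 5 lay just above both (2.07 against 1.95 and 1.30). The genes were picked for this contrast, so these differences are a description. The Runx2 value of 3.14 includes control 2, which had 1 read.

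The cofactor Cbfb and the other partners in the LIM complex had close means in both genotypes. Cbfb (ENSMUSG00000031885) was at 58.1, 86.3 and 95.4 CPM in the lowest, median and highest control library and at 67.1, 77.3 and 100.2 CPM in Wnt gain of function, a log2 fold change of 0.03 ± 0.141. Ldb1 (ENSMUSG00000025223), the dimerising adaptor that binds LIM domains, was at 16.1, 17.9 and 20.5 CPM and at 13.4, 18 and 26.9 CPM, with 0.08 ± 0.153. Its spread was wider with Wnt gain of function, an SD of 27.8% of the mean against 8.75%. Replicates 3, 4 and 6 of that genotype lay above every control and replicates 1, 2 and 5 below every control.

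The helix-loop-helix factors and Gata2 overlapped in full or nearly so. Tal1 (ENSMUSG00000028717), the partner of E proteins in blood and vessel progenitors, was at 3.17, 9.25 and 21.7 CPM in the lowest, median and highest control library and at 3.81, 10.8 and 18.6 CPM in Wnt gain of function, a log2 fold change of 0.02 ± 0.536. Lyl1 (ENSMUSG00000034041), its close relative, was at 3.97, 7.03 and 8.58 CPM and at 4.74, 7.64 and 9.45 CPM, with 0.12 ± 0.205. Gata2 (ENSMUSG00000015053), a zinc finger factor of blood progenitors and endothelium, was at 10.4, 13.7 and 15.2 CPM and at 9.96, 13.7 and 16.6 CPM, with 0.04 ± 0.129. The SE of Tal1 leaves room for a sizeable difference in either direction, whereas that of Gata2 is narrow. In the authors' deposited table the log2 fold changes were 1.60 for Runx1, 1.96 for Runx2, 1.11 for Runx3 and 1.08 for Lmo2. The other 5 members lay between 0.0309 and 0.152 there.

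**Figure D3:**
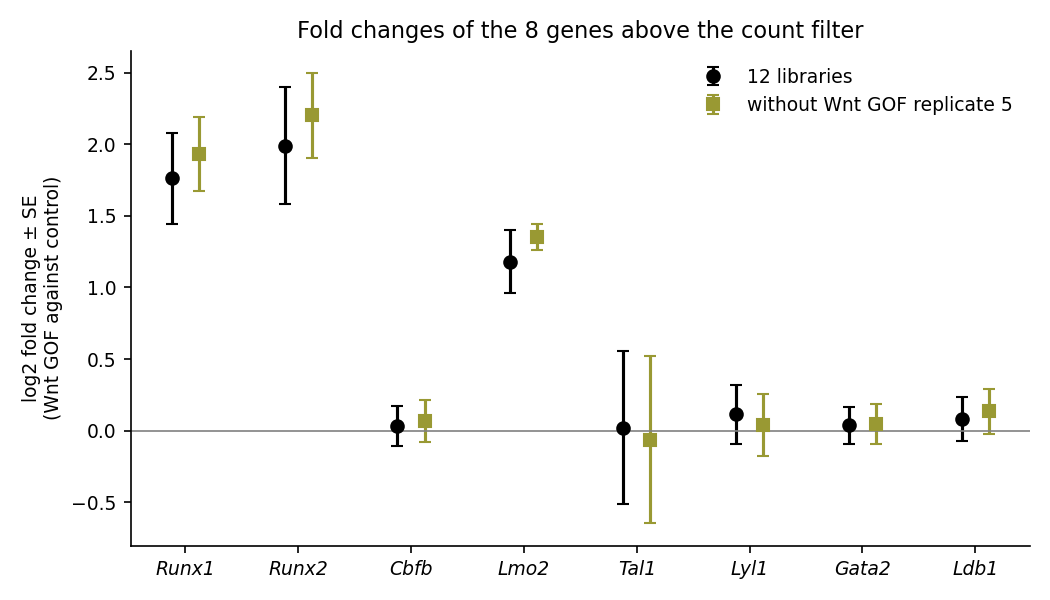
Log2 fold change ± SE (vertical axis) of the 8 genes above the count filter, from edgeR with all 12 libraries (circles) and without Wnt GOF replicate 5 (squares). Runx1, Runx2 and Lmo2 lie between 1.18 and 1.99 with all libraries and the other 5 genes between 0.02 and 0.12.

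Tal1 and Cbfb differed between the library sets, while their means were close between genotypes. The sets were made from the deviations of all tested genes, Tal1 and Cbfb among them, so the sets are not independent of these values. Tal1 was at 3.17 to 5.44 CPM in the 4 libraries of the set with control 2 and 3, at 7.46 to 14.1 CPM in the set with replicate 5, and at 16.8 to 21.7 CPM in the set with control 4 and 5. Summed erythroid markers (13 genes found, globins among them) were 9725 to 12946 CPM, 13953 to 91372 CPM and 36698 to 75663 CPM in the same sets. The lowest Tal1 values were thus found with the lowest erythroid sums, but replicate 5, with the highest sum, had a middle Tal1 value of 14.1 CPM.

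Cbfb followed the same order of sets without overlap, at 58.1 to 70.0, 71.8 to 91.1 and 91.7 to 100.2 CPM. Lyl1 was at 3.97 to 5.74 CPM in the set with control 2 and 3 and at 6.80 to 9.45 CPM in the other 8 libraries. Gata2 overlapped between all 3 sets, from 9.96 to 16.6 CPM. Over the deviations of 12 libraries from their group means, Pearson's r was 0.88 between Tal1 and Cbfb and 0.74 between Tal1 and Lyl1. Without replicate 5 these were 0.96 and 0.73. These are descriptions, since the libraries of a set, mainly outside the loose set with replicate 5, share such deviations across genes. The part of blood content or of the sets in the Tal1 values was not tested.

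**Figure D4:**
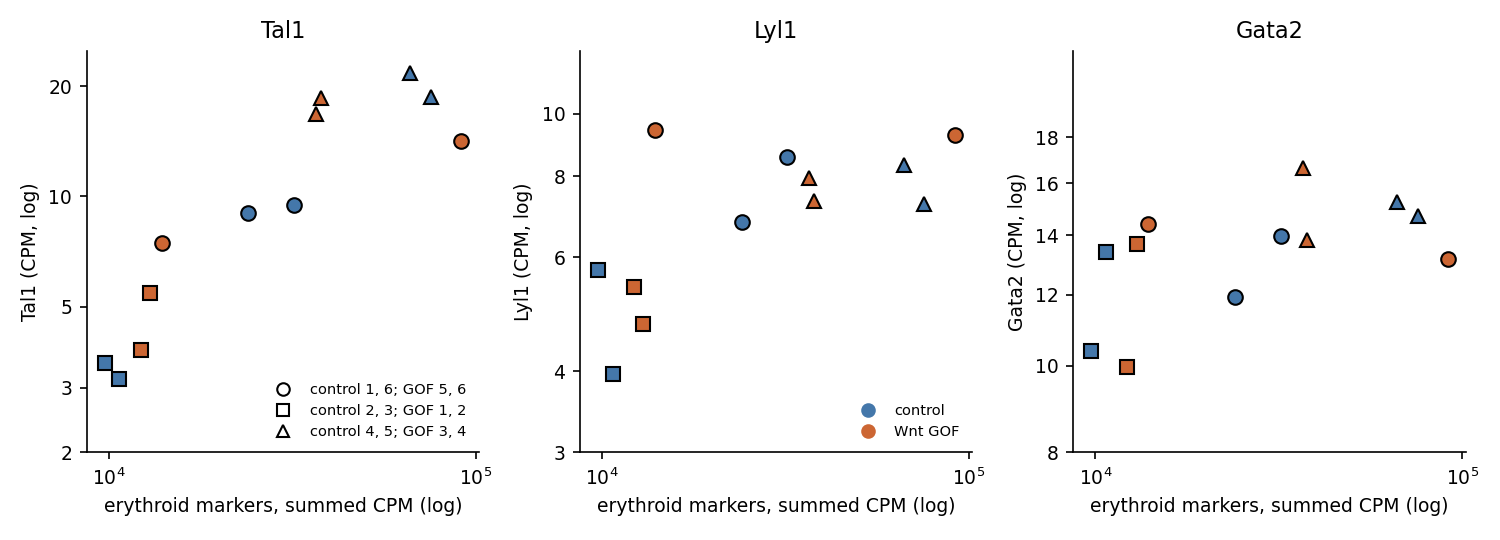
Tal1, Lyl1 and Gata2 (vertical log axes, CPM) against the summed erythroid markers (horizontal log axis, CPM) in 12 libraries; colours are genotypes and shapes are the 3 library sets. The 4 square points of the set with control 2 and 3 are lowest for Tal1, at 3.17 to 5.44 CPM, and for Lyl1, while Gata2 overlaps between sets.

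Over the same deviations, Pearson's r was 0.81 between Lmo2 and Runx1, 0.72 between Lmo2 and Runx2 and 0.60 between Runx1 and Runx2. Without replicate 5 these values became 0.73, 0.24 and 0.22. Between Lmo2 and Cbfb, Ldb1, Gata2, Tal1 and Lyl1, r was 0.40, 0.48, 0.22, 0.02 and -0.14. Leaving out replicate 5 raised these to 0.83, 0.83, 0.72, 0.86 and 0.75. Lmo2 was then not closer to Runx1 than to Cbfb, Ldb1, Tal1 or Lyl1, and its r with Gata2 was nearly that with Runx1. Of 12389 tested genes with an established symbol and a mean log2 CPM of at least 0, the 5 most like Lmo2 were Bcl2, an inhibitor of apoptosis (r = 0.98), Dpysl3, a regulator of the cytoskeleton (0.97), the secreted protein Ism1 (0.94), the Wnt modulator Dkk2 (0.93) and the retinol dehydrogenase Rdh10 (0.92). Without replicate 5, Bcl2 (0.86) and Rdh10 (0.92) stayed close to Lmo2, while Dpysl3 (0.35), Ism1 (0.32) and Dkk2 (0.45) did not. Ism1 and Dkk2 were themselves called higher by edgeR (log2 fold changes 2.98 and 3.29, adjusted p 0.0095 and 0.0176), as were 0.433% of all tested genes. Bcl2, Dpysl3 and Rdh10 were not called. Replicate 5 was at or below the control level in Lmo2, so r with it included is not independent of the contrast.

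The genes most like Runx2 were the TCF/LEF factor Tcf7, a partner of beta-catenin (r = 0.89), the GDNF co-receptor Gfra1 (0.87), the tryptophan-degrading enzyme Tdo2 (0.86), the cytokine Il18 (0.85) and the ubiquitin ligase Hecw1 (0.84). Their rank correlations with Runx2 were lower, from 0.28 to 0.62, and without replicate 5 Pearson's r was 0.69 to 0.81. Gfra1, Il18 and Hecw1 were themselves called higher by edgeR (log2 fold changes 1.70, 1.11 and 1.80, adjusted p 0.0145, 0.0145 and 0.0176). Tcf7 and Tdo2 were not called. The same limit holds for Runx2, which was at the control level in replicate 5. Those most like Runx1 were Mbd2, which binds methylated DNA (0.93), the ETS factor Elk4 (0.92), the potassium channel Kcnt2 (0.91), Vps54 (0.90) and Col25a1 (0.90). These kept r from 0.80 to 0.91 without replicate 5, and edgeR called none of them.

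Partners, cofactors, targets and cell type markers were read from lists of 201 genes, of which 164 were tested. EdgeR called 0 of them, 19 had an unadjusted p under 0.05 (11.6%, against 6.30% of all tested genes), DESeq2 called 3 and limma-voom 0. The median log2 fold change over all tested genes was 0.00, and 50.4% lay above 0.

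Among 17 tested partners of the LIM and helix-loop-helix complex, 10 were above 0, with 0.05 as the median log2 fold change. They include the E proteins, further LIM-only and Ssbp proteins and the corepressors of the complex. Lmo3, a relative of Lmo2, had 2.54 ± 0.447 CPM in control and 1.37 ± 0.593 with Wnt gain of function (n = 6), or -0.87 ± 0.256 on the log2 scale (edgeR adjusted p = 0.258). The E protein gene Tcf4 was at 0.21 ± 0.155 and Ssbp2, which stabilises Ldb1, at -0.12 ± 0.102 (both 0.999). Among 24 Runx cofactors, such as the Groucho corepressors and histone deacetylases, 0 had an unadjusted p under 0.05 and the median was 0.04. The deacetylase Hdac1 (-0.18), the Runx1 fusion partner Runx1t1 (-0.18) and the corepressor scaffold Sin3a (-0.12) had the lowest p, with edgeR adjusted p-values of 0.939, 0.946 and 0.959.

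Of 18 tested transcription factors of blood and endothelium, 8 lay above 0, with a median of -0.03. Ets1, an endothelial ETS factor, was at 179.4 ± 33.3 and 123.3 ± 48.3 CPM (-0.54 ± 0.231 on the log2 scale, edgeR adjusted p = 0.706). Its relative Elf1 was at 0.24 ± 0.104 (0.701) and Mecom, of blood stem cells and endothelium, at -0.39 ± 0.183 (0.793).

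Among 14 tested genes known as Runx targets in blood, bone or neurons, 9 lay above 0, with a median of 0.16, and 4 had an unadjusted p under 0.05. Itgal, a leukocyte integrin, ran from 0.866 to 2.08 CPM in the controls and from 2.40 to 2.81 with Wnt gain of function, higher in 6 of 6 libraries than in any control. Its log2 fold change was 0.79 ± 0.197 (edgeR adjusted p = 0.128). Ntrk2, a neurotrophin receptor, was at 1.21 to 5.44 and 0.293 to 2.00 CPM, with -1.66 ± 0.454 (0.205). The cell cycle inhibitor Cdkn1a, named after its values were seen, was at 25.5 ± 2.86 and 39.3 ± 11.8 CPM (0.62 ± 0.172, 0.211). DESeq2 called all 3, with adjusted p-values of 0.0479 for Itgal, 0.0293 for Ntrk2 and 0.0449 for Cdkn1a. Without replicate 5 edgeR called Ntrk2 lower (adjusted p = 0.0287) and Cdkn1a higher (0.0065), and blocked on library set it called Itgal (0.0423) and Ntrk2 (0.00575). Spp1, the bone matrix protein osteopontin, also named after its values were seen, was the fourth with an unadjusted p under 0.05. It was at 3.43 ± 1.33 and 6.60 ± 3.70 CPM (0.93 ± 0.347, edgeR adjusted p = 0.527), with overlapping groups. Ibsp, another bone gene of the list, had at most 1 read in any library.

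**Figure D5:**
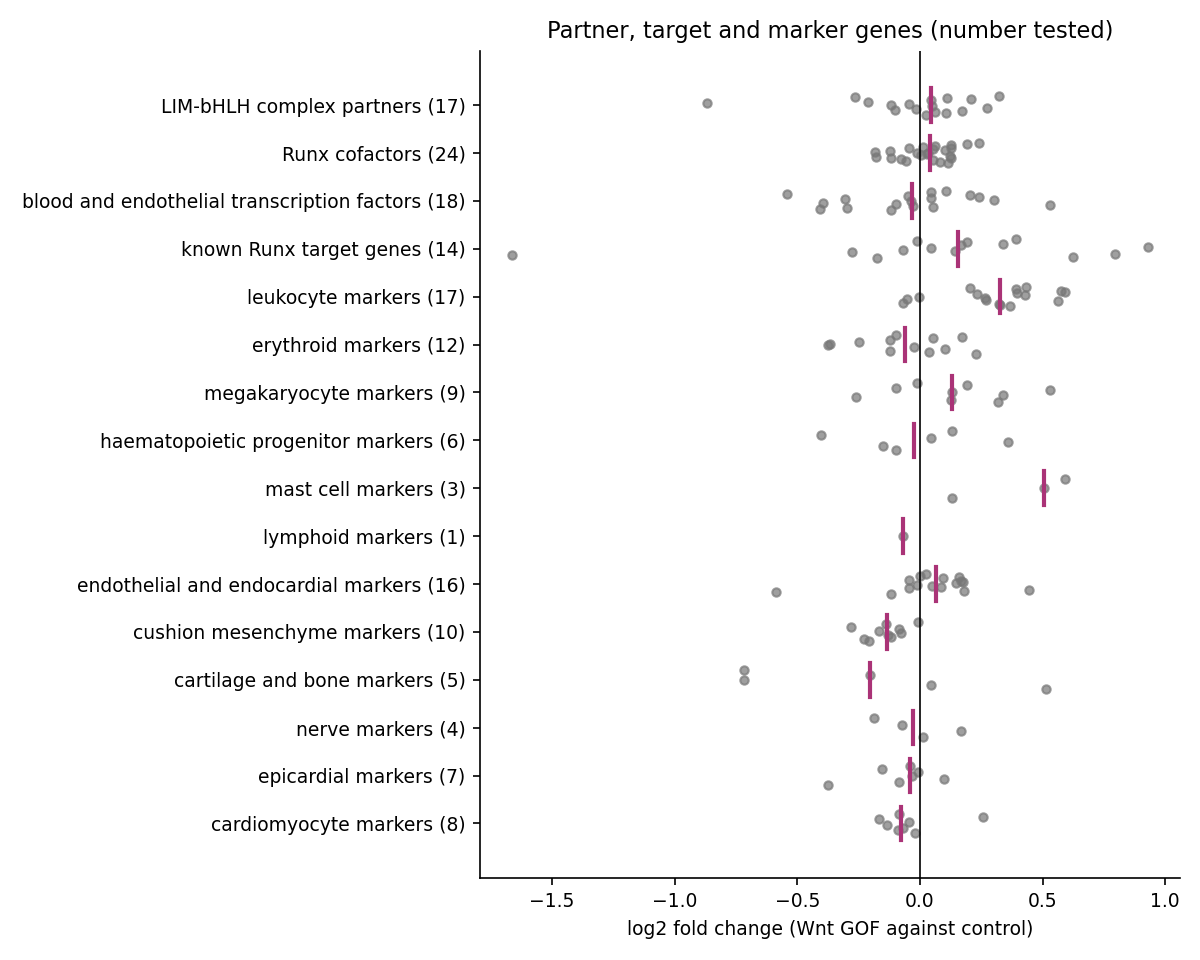
Log2 fold changes (horizontal axis) of the tested genes in 16 lists of partners, targets and markers; points are genes, vertical strokes are list medians and the number tested stands in brackets. The medians are highest for the mast cell markers, at 0.50 over 3 genes, and the leukocyte markers, at 0.33 over 17, and the other 14 lie between -0.20 and 0.16.

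Markers of the cell types that can carry these genes were read in the same libraries. Of 17 leukocyte markers 14 were above 0, the median was 0.33 on the log2 scale, with 8 at an unadjusted p under 0.05, but 0 called by edgeR, DESeq2 or limma-voom. Aif1, a macrophage gene, was at 4.12 ± 0.957 and 6.14 ± 1.70 CPM (edgeR adjusted p = 0.505), and the signalling adaptor Tyrobp at 4.66 ± 0.738 and 7.0 ± 2.50 CPM (0.542). The summed leukocyte markers ran from 158.7 to 203.6 CPM in control and from 196.5 to 244.0 CPM in Wnt gain-of-function libraries, and none was at 0 in all libraries. In 4 of 6 Wnt gain-of-function libraries, replicates 1, 2, 4 and 5, the sum exceeded every control. Replicate 2, with the highest sum (244.0 CPM), had the highest Runx2, and replicate 3, with the lowest of its genotype (196.5 CPM), had Runx1 at 8.55 CPM. Replicate 1, at 232.7 CPM, had Runx1 at 3.11 CPM. Replicate 5, at 212.9 CPM, had Runx1 and Runx2 within the control range and Lmo2 below it. With the mean leukocyte marker level as a covariate the log2 fold change was 1.57 ± 0.421 for Runx1, 1.48 ± 0.521 for Runx2 and 0.82 ± 0.261 for Lmo2.

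The 16 endothelial and endocardial markers had a median log2 fold change of 0.07, and 1 had an unadjusted p under 0.05. That gene was Npr3, an endocardial receptor, at 77.1 ± 18.4 and 104.8 ± 31.2 CPM (0.44 ± 0.205, edgeR adjusted p = 0.789). Npr3 was called higher in edgeR when library set was a block (adjusted p = 0.0257). Tek, an angiopoietin receptor, was at 0.16 ± 0.077 (0.809). Their summed level ran from 1014 to 1151 CPM in control and from 1108 to 1220.5 CPM in Wnt gain-of-function libraries. In 3 of 6 Wnt gain-of-function libraries, replicates 1, 2 and 6, the sum exceeded every control. With the mean endothelial level as a covariate the log2 fold change was 1.48 ± 0.317 for Runx1, 1.78 ± 0.436 for Runx2 and 0.94 ± 0.197 for Lmo2.

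Other blood lineages were also covered. Of 9 megakaryocyte markers, 6 lay above 0, with the platelet glycoprotein gene Gp1ba at 0.53 ± 0.304 (edgeR adjusted p = 0.946) and the integrin Itgb3 at -0.26 ± 0.237 (0.999). Their sum, 28.1 to 79.6 CPM in the controls and 34.1 to 98.6 CPM in the others, overlapped broadly. Of 6 progenitor markers, the surface protein gene Cd34 was at 125.4 ± 14.2 and 94.7 ± 17.0 CPM (-0.41 ± 0.113, adjusted p = 0.212) and the receptor gene Procr at 0.36 ± 0.153 (0.689). Cd34 was called lower in edgeR when blocked on library set (adjusted p = 0.0024). The 3 mast cell markers tested all lay above 0, with a median of 0.50, Hdc at 0.50 ± 0.248 (0.832) and Cpa3 at 0.59 ± 0.561 (0.999), and the defining gene Fcer1a was at 0 in all 12 libraries. Only 1 lymphoid marker was tested, Lck, at -0.07 ± 0.187 (0.999). The 12 erythroid markers had a median of -0.06, with Hbb-bt at -0.38 ± 0.473 and Hbb-bs at -0.37 ± 0.527 (both 0.999).

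Tissues that use Runx2, such as bone and cartilage, were covered too. The 5 cartilage and bone markers tested had a median log2 fold change of -0.20, with Acan at -0.72 ± 0.436 (edgeR adjusted p = 0.982) and Dlx5 at 0.51 ± 0.342 (0.999). Their sum was 12.8 to 39.9 CPM in the controls and 13.7 to 35.7 CPM in the others. The 10 cushion mesenchyme markers all lay below 0, with a median of -0.13, and Pdgfra at -0.23 ± 0.150 and Snai1 at -0.28 ± 0.234 (both 0.999). Among nerve markers Tubb3 was at 0.17 ± 0.270 and Elavl3 at -0.19 ± 0.307, and among epicardial markers Msln was at -0.38 ± 0.305 and Tbx18 at -0.15 ± 0.139 (edgeR adjusted p = 0.999 for each). Of 8 cardiomyocyte markers only 1 lay above 0, Myh6 at 0.26 ± 0.114 (0.722), and the median was -0.08, with Myh7 at -0.17 ± 0.144 (0.999). The cardiomyocyte markers summed to 29494 to 37829 CPM in control and 27224 to 34529 CPM in Wnt gain-of-function libraries. Beyond the values with a leukocyte or endothelial covariate, the part of these cell types in the levels of Runx1, Runx2 and Lmo2 was not tested.

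Reads of neighbouring genes could touch 4 members, since the strand setting is not given in the sources used here. In GENCODE M21, antisense Runx2os1 shares 5.87% of the exonic bases of Runx2 and had at most 2 reads in any library. Antisense Gm26626 shares 0.881% of those of Runx1, with at most 3 reads. Pprc1, on the opposite strand, shares 3.84% of those of Ldb1 and had up to 546 reads in a library, where Ldb1 had up to 356. Nfix shares 0.222% of those of Lyl1 and had up to 288 reads, where Lyl1 had up to 128.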

How the data were processed

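Whole-number read counts per Ensembl gene were deposited, per the file headers, and the submitters' processing notes name Subread, featureCounts and edgeR. Genome build, annotation, versions and strand setting were not stated there. Repeated rows of an ID (622 of 41422) carried identical counts and were left out. A comparison table deposited by the authors holds log2 fold changes and adjusted p-values, in columns named as limma writes them. Its log2 values per library were not used.

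Counts were filtered by filterByExpr (minimum count 10), scaled by TMM and compared with the robust quasi-likelihood test of edgeR 4.0.16 in R 4.3.3, with group as the only term, over 14774 genes. Benjamini-Hochberg adjusted p-values under 0.05 were called, and SE derives from the F statistic. Alternatives included DESeq2 1.42.0 and limma-voom (limma 3.58.1). No label says that libraries came from separate animals, so p-values reflect only the scatter among libraries, which may be technical. Deviations used log2 CPM with 0.5 added to counts.

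The members, the 16 lists (201 symbols, 2 not found) and the tests were chosen with earlier results of these data known. Genes named are the members, Axin2, the lowest p of each list (3 genes for the first 3 lists, 2 for the others) and the 5 genes most like Runx1, Runx2 and Lmo2. Cdkn1a, Spp1, Ibsp and Fcer1a were added after their values were seen. Same-numbered libraries were not paired, with correlations from -0.363 to 0.445.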

Additional observations from a re-analysis of the deposited data

Results flagged for a closer look

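Of 20 groups of 6 libraries examined (the 9 genes and Axin2 in each genotype), 2 held a library farther from the rest than Dixon's 95% limit for the gap over the range, where chance gives about 1 in 20. Both were Wnt gain-of-function replicate 5, the lowest library of its group, with Runx2 at 0.518 CPM (gap over range 0.827) and Lmo2 at 12.7 CPM (0.714). Without that library, Runx2 and Lmo2 had log2 fold changes of 2.20 and 1.35, against 1.99 and 1.18 with it. Both genes were picked for this contrast and both flags fall on the same library, so the flags are not independent. Axin2 was not flagged in either genotype.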

How the results depend on the processing

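Under the 25 alternatives, Runx1, Runx2 and Lmo2 stayed above 0 on the log2 scale, at 1.48 to 1.93, 1.48 to 2.20 and 0.82 to 1.35, while Cbfb, Tal1, Gata2 and Ldb1 changed sign in some, around values near 0. All 200 alternative values of the 8 tested members moved by less than 1 SD between replicates. That limit is wide, since it is the SD of single libraries within a genotype, replicate 5 included. The 3 called members became 0 to 3 with 1 library left out, 0 without control 6 and 3 without Wnt gain-of-function 5. Runx1 was called in 11 of these 12 fits, Runx2 and Lmo2 in 1 each. These genes were picked for this contrast, so nothing is read from these tallies, and the calls over all genes follow. The 3 called members became 0 in limma-voom, with either covariate and with the 3 closest pairs summed. They became 1 with the replicate block, which gave 47 higher genes. Over all genes, 64 higher and 10 lower became 97 higher with no filter, 135 and 25 in DESeq2, 3 and 3 in limma-voom, 1 and 2 with the leukocyte and 19 and 5 with the endothelial covariate. They became 195 and 100 when blocked on library set and 0 and 1 with the pairs summed, both chosen after seeing the data, and 34 to 149 and 4 to 28 with 1 library left out. The causes were not tested. In the lists, 5 of 400 combinations held a call, with up to 3 Runx targets. The library sets as a block called Itgal, Ntrk2, Cd34 and Npr3. The planned correlations with Axin2 and their alternatives were not run. No protein sequence was used here, so the planned protein identities were not computed. Counts of a few reads limit Runx2 in the controls and Runx3 throughout.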
